A study of Mus musculus with 16 samples.

Results

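The genes described here encode the proteins of the cytoplasmic ribosome and close copies of them, measured by RNA sequencing in 4 tendons of C57BL/6J mice. They were taken by gene name, with a pattern that matches Rpl, Rps, Rpsa and Rplp names with their numbered and lettered forms, and 89 of the 41204 genes in the count table matched. Of these, 77 are core ribosomal protein genes (43 of the large subunit, 31 of the small subunit and 3 of the stalk), 4 are the paralogs Rpl3l, Rpl39l, Rpl22l1 and Rps27l, and 8 are other copies. The filter on low counts passed 88 of the 89, all but Rpl10l, and 23754 of all genes. The rule used names and no measured values. The study compared the Achilles, forepaw flexor, patellar and supraspinatus tendons, with 4 libraries of each, and its stated aim was the expression differences between these tendons. All mice were of the same strain, with no treatment or altered gene named in the labels, and the labels used here state no age or sex. Each library carries a mouse number, and the labels do not say if libraries of different tendons with the same number came from 1 mouse.

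A ribosome is built from ribosomal RNA and a fixed set of proteins, which join it in roughly equal amounts in the nucleolus and cytoplasm. The genes of the core proteins are transcribed in nearly every cell, and their mRNAs carry a pyrimidine tract at the 5′ end through which growth signals set their translation. Some core proteins have a paralog that can take their place and that is best known from particular tissues: Rpl3l from skeletal and heart muscle, Rpl39l from male germ cells. Rpl22l1 is a paralog that binds RNA like Rpl22, and Rps27l is a close relative of Rps27 known as a p53 target. In tendon, fibroblasts translate large amounts of collagen on these ribosomes.

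Rpl39 and Rpl39l are shown base by base because Rpl39l had the largest fold changes among the paralogs and because close copies can share reads. In GENCODE for GRCm38, Rpl39 lies at chrX:37082520-37085402 on the minus strand and Rpl39l at chr16:10170226-10174911 on the plus strand. Both encode a short protein that lines the exit tunnel of the large subunit. Their coding sequences, from GENCODE transcripts of GRCm38, are both 156 bases long and differ at 23 of them, which are in capitals.
Rpl39: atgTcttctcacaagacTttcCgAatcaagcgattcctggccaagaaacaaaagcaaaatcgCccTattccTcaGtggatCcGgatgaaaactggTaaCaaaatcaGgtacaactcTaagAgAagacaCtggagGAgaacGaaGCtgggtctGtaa
Rpl39l: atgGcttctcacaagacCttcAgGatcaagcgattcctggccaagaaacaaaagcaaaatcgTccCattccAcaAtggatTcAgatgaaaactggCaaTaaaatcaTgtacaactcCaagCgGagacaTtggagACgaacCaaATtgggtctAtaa
The pair was 85.3% identical, and the longest run without a difference was 38 bases. The other coding pairs were less alike, at 73.9% for Rpl3l and Rpl3, 76.1% for Rps27l and Rps27 and 70.2% for Rpl22l1 and Rpl22. Their longest identical runs were 22, 11 and 26 bases. Rpl3l lies at chr17:24727820-24736143 and Rps27l at chr9:66946086-66949516, both on the plus strand. Rpl22l1 lies at chr3:28805436-28807424 on the plus strand and overlaps the antisense gene Gm33051. Rpl3, at chr15:80077791-80091868 on the minus strand, overlaps the antisense gene Syngr1. These overlaps are of whole gene spans with their introns, and overlap of exons was not checked. Reads in any shared stretch cannot be told apart without strand.

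The promoters of Rpl39l and Rpl3l, the paralogs with the largest fold changes, are shown beside those of core members that changed between tendons or are partners of a paralog. Each window runs from 60 bases before to 15 bases after a RefSeq start in GRCm38.p6, 5′ to 3′ on the gene's strand, with the motif CTTTCC in capitals where the window holds it.
Rpl39l, chr16:10170168-10170242, plus strand: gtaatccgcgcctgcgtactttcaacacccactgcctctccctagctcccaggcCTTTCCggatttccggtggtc
Rpl39, chrX:37085208-37085282, minus strand: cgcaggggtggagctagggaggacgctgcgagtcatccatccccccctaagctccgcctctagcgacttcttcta
Rpl3l, chr17:24727766-24727840, plus strand: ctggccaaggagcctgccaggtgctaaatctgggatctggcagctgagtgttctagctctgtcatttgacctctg
Rps27, chr3:90213634-90213708, minus strand: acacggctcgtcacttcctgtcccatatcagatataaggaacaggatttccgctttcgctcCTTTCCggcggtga
Rpl13a, chr7:45128731-45128805, minus strand: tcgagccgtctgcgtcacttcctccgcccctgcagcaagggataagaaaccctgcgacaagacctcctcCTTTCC
Rpsa, chr9:120127706-120127780, plus strand: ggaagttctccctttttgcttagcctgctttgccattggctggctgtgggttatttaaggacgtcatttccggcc
RefSeq promoters of 300 bases were found for 57 of the 77 core genes. On either strand, CTTTCC, a short pyrimidine run, was present in 47.4% of these 57 and in 26.3% of all 27025 genes with a promoter. CCGGAAG, the letters of an ETS-family site, was present in 40.4% against 9.1%. AAGATGG, the letters of a YY1 site, was present in 8 of the 57 against 6.5% of all. CTTTCC and CCGGAAG can overlap at their shared bases. Of the paralogs, Rpl39l held CTTTCC and CCGGAAG in its 300-base promoter and Rps27l held CCGGAAG. Rpl3l and Rpl22l1 held none of the 3 motifs in theirs. In the shorter window shown above, Rpl39l held CTTTCC but not CCGGAAG. These matches describe letters in the promoters and were not tested against expression.

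Total counts were 84414005 to 97180849 per Achilles library, 97242489 to 106573353 in flexor, 34559686 to 63235636 in patellar and 86898889 to 107805065 in supraspinatus tendon. All 10 tendon fibroblast markers were detected in every tendon, with summed levels between 9102 and 56970 CPM (counts set against the scaled library total) over the 16 libraries. The patellar libraries stood apart. Genes whose reads resemble ribosomal RNA took 13.2% to 42.0% of their counts, against 1.86% to 4.91% in the other 12 libraries. These were Gm26917, Gm15564, Gm23935, CT010467.1, Lars2 and the mitochondrial rRNA genes mt-Rnr1 and mt-Rnr2. The set is therefore not a measure of cytoplasmic rRNA alone. Markers of skeletal muscle (20 of 20 detected) summed to 525 to 9876 CPM in patellar, 46880 to 99060 in Achilles, 76090 to 117100 in flexor and 178400 to 199600 in supraspinatus libraries. Bulk counts cannot tell fewer cells of a type from less RNA per cell. Levels below are CPM scaled by the trimmed mean of M-values (TMM), and a gene was called when its edgeR quasi-likelihood p, adjusted by Benjamini-Hochberg over all 23754 genes, was under 0.05.

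The 77 core genes together took the largest share of counts in the patellar tendon and the smallest in the supraspinatus tendon. The 4 Achilles libraries had shares of 0.464%, 0.493%, 0.473% and 0.452%. The share was 0.483%, 0.611%, 0.664% and 0.532% in flexor libraries, 0.696%, 0.633%, 0.608% and 0.634% in patellar, and 0.355%, 0.474%, 0.355% and 0.287% in supraspinatus. The patellar and Achilles libraries did not overlap, nor did the patellar and supraspinatus libraries. The flexor libraries overlapped both Achilles and patellar, and supraspinatus library 2 lay among the Achilles libraries. The means were 0.471 ± 0.0173%, 0.572 ± 0.0806%, 0.643 ± 0.0372% and 0.368 ± 0.0777% (SD, n = 4 each). With the rRNA-like genes left out of the total, the patellar mean was 0.932 ± 0.140% and the others 0.491%, 0.585% and 0.380% in the same order. In the test over all 4 tendons, 70 of the 77 core genes and all 4 paralogs passed, against 64.9% of all genes.

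**Figure D1:**
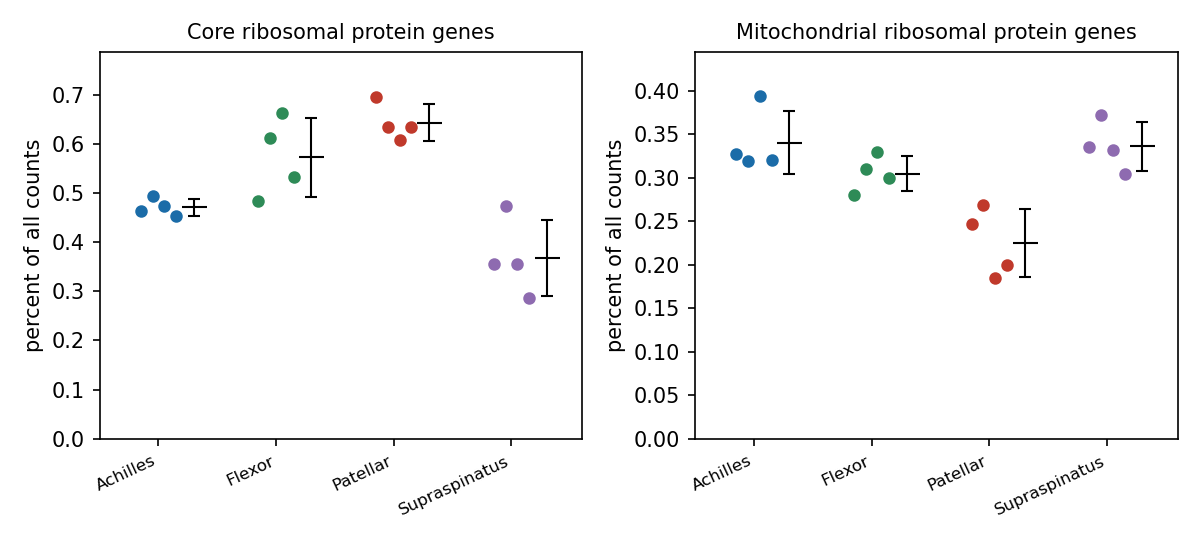
Percent of all counts (vertical axis) in the 77 core ribosomal protein genes (left) and in 78 mitochondrial ribosomal protein genes (right) for the 4 libraries of each tendon; points are libraries, horizontal marks are means and bars are SD. The patellar libraries, at 0.608% to 0.696%, lie above all Achilles and supraspinatus libraries on the left, and below all other libraries on the right, where the totals include the rRNA-like genes.

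Core levels were uneven from gene to gene. Per kilobase of exon, the median core gene was at 34.1 scaled CPM in patellar, 27.7 in flexor, 21.2 in supraspinatus and 20.9 in Achilles tendon. Exon length was taken over all annotated exons of a gene, merged over its transcripts, and can exceed that of a single transcript. The order of genes on this scale depends on that length. Rplp1, a stalk protein, was the highest in every tendon (183 to 374), and Rps10 the lowest (0.211 to 0.521). Among raw shares of the core counts, Rpl4 and Rplp0 led in all 4 tendons, and the 5 leading genes together held 25.9% of the core counts in Achilles, 26.9% in flexor, 27.8% in supraspinatus and 21.9% in patellar tendon. Overlap with other genes was taken by gene span, introns included, and overlap of exons was not checked. Of the 77 genes, 46 overlap another annotated gene and 21 of those an antisense one, and the strand setting of the counting is not given. Rpl13a, which overlaps 6 annotated genes, Rpl23a, which overlaps 4, and Rps10, which overlaps 2, are among these, and so is Rpl17, which overlaps 3. How the authors' counting treated reads shared by overlapping genes or by near-identical copies is not known, so the levels of these members are uncertain. The same limit holds for other genes named below, such as Rpl3 and Rpl4, which overlap 5 each, and Rpsa, Rps12 and Rps2, which overlap 3 each. Low levels for core genes were seen in 4 members, with highest scaled CPM over the 16 libraries of 9.85 for Rpl13a, 3.72 for Rpl23a, 1.82 for Rps10 and 7.99 for Rpl17.

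The core genes rose as a group in patellar against Achilles tendon. Of the 77, 69 were called higher and 0 lower, where 17.4% of all genes tested were called higher and 21.1% lower. At an unadjusted edgeR p under 0.05 the count lower was also 0, as it was with DESeq2. The median log2 fold change was 0.72, with members from 0.08 to 1.49, while the median of all genes was -0.01. The large subunit (39 of 43 called, median 0.71) and the small subunit (28 of 31, median 0.73) had like shares called. With any 1 library left out the count was between 61 and 70.

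The members that rose most from Achilles to patellar tendon were Rpl13a, Rpsa, Rpl23a and Rps12. Rpsa, a small subunit protein also described as a laminin receptor, was at 48.4, 56.8, 56.4 and 42.6 scaled CPM in Achilles and 182, 81.6, 142 and 157 in patellar libraries. The lowest patellar library, number 2, was still above every Achilles library, and the log2 fold change was 1.46 ± 0.20 SE, adjusted p = 3.9e-05. Rpl13a, a large subunit protein whose introns hold small nucleolar RNAs, was at 2.601, 3.701, 2.87 and 2.99 in Achilles and 9.62, 5.98, 8.68 and 9.85 in patellar libraries (1.49 ± 0.22 SE, adjusted p = 9.6e-05). Rpl23a, which sits at the tunnel exit, and Rps12, a protein of the small subunit head, changed by 1.41 and 1.19 on the log2 scale (edgeR adjusted p = 0.000296 and 0.000105), also without overlap. Rplp0, the base of the stalk, was among the 8 not called (0.19 ± 0.16 SE, adjusted p = 0.391), while its partners Rplp1 (0.97) and Rplp2 (0.86) were called (edgeR adjusted p = 0.000236 and 0.000452).

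Other cell types also differed between these tendons. In the same comparison the lists of markers gave 6 higher and 1 lower of 10 for tendon fibroblasts, 0 and 19 of 20 for skeletal muscle, 1 and 1 of 9 for adipocytes, 6 and 0 of 6 for red blood cells, 0 and 8 of 8 for Schwann cells, 0 and 6 of 7 for endothelium, 0 and 0 of 8 for macrophages (edgeR adjusted p), 2 and 0 of 5 for epidermis and 1 and 3 of 6 for bone. All 7 rRNA-like genes were higher in patellar tendon, with a median log2 fold change of 3.21. The part of these differences in the core result was not tested. With the rRNA-like genes left out before scaling, the count of core genes higher in patellar tendon was again 69.

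**Figure D2:**
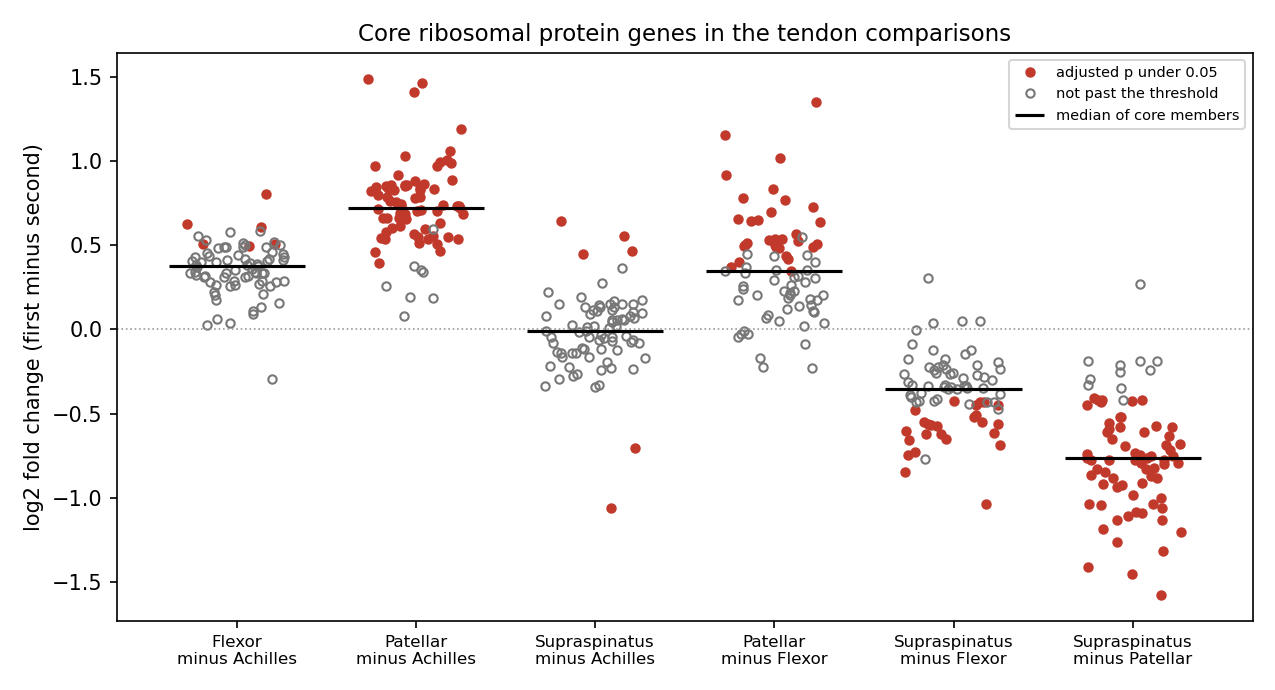
Log2 fold change (vertical axis, first tendon minus second) of each of the 77 core genes in the 6 comparisons; filled points passed the edgeR adjusted p of 0.05, open points did not, and black lines are medians over the core genes. Filled points number 69 in patellar minus Achilles and 66 in supraspinatus minus patellar, and the medians are 0.72 and -0.76.

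Against the flexor tendon, 31 core genes were called higher in patellar and 0 lower, beside 24.2% of all genes higher and 26.2% lower. The median log2 fold change was 0.35. The count lower at an unadjusted edgeR p under 0.05 was 0, and DESeq2 also called 0. Rpsa led again: its flexor libraries were at 48.6, 57.2, 61.5 and 53.1 scaled CPM, all below the patellar ones given above (1.35 ± 0.20 SE, adjusted p = 3.8e-05). Rpl13a (1.15 ± 0.22 SE, adjusted p = 0.0004196), Rps15 (1.02 ± 0.16 SE, adjusted p = 9.7e-05) and Rpl23a (0.91 ± 0.24 SE, adjusted p = 0.00447) followed, each without overlap. Rps15, a protein of the small subunit head, was at 49.8, 60.1, 63.7 and 55.2 in flexor and 152, 88.1, 102 and 122 in patellar libraries. The count fell to 16 without flexor library 1 and to 18 without patellar library 1 or 3. Among the marker lists 7 tendon fibroblast genes of 10 were higher and 1 lower, 9 of 9 for adipocytes, 6 of 6 for red blood cells and 7 of 7 rRNA-like genes were higher, and 19 of 20 for muscle and 8 of 8 for Schwann cells were lower. Their part in the core result was not tested.

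In the supraspinatus tendon core genes were lower than in the patellar tendon. Of 77, 66 were called lower and 0 higher, beside 26.8% of all genes lower and 26.4% higher (53.3% either way), with a median log2 fold change of -0.76. No core gene was higher at an unadjusted edgeR p under 0.05 (0) or with DESeq2 (0). Rpsa was at 45.1, 57.8, 46.2 and 39.6 scaled CPM in the supraspinatus libraries (-1.57 ± 0.20 SE, adjusted p = 7.2e-06). Rps12 (-1.45 ± 0.18 SE, adjusted p = 6.7e-06), Rpl3 (-1.41 ± 0.16 SE, adjusted p = 2.4e-06) and Rpl23a (-1.26 ± 0.24 SE, adjusted p = 0.0003701) were the next largest of those whose libraries did not overlap. In the same comparison 19 of 20 muscle markers were higher and 1 lower, while 9 of 9 for adipocytes, 6 of 6 for red blood cells, 7 of 8 for Schwann cells, 5 of 6 for bone, 5 of 10 for tendon fibroblasts and 7 of 7 rRNA-like genes were lower. Their part in the core result was not tested.

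Supraspinatus against flexor tendon gave 25 core genes lower and 0 higher, beside 12.4% and 14.7% of all genes (27.1% either way), with a median of -0.36. The higher count at an unadjusted edgeR p under 0.05 and with DESeq2 was 0 in each case. Rpl3, a large subunit protein that reaches towards the peptidyl transferase centre, was at 69.8, 82.6, 93.5 and 83.9 scaled CPM in flexor and 33.4, 53.02, 39.5 and 34.8 in supraspinatus libraries. These groups did not overlap, and the log2 fold change was -1.04 ± 0.16 SE, adjusted p = 0.000116. Rps18 (-0.73), Rpl36a (-0.62) and Rpl30 (-0.61) also fell without overlap, with edgeR adjusted p of 0.00257, 0.00843 and 0.00441. The count of 25 rested on single libraries: it was 9 without flexor library 3, 11 without flexor library 2, 10 without supraspinatus library 4, 14 without supraspinatus library 1 or 3, 16 without Achilles library 1 or 4, and 45 without supraspinatus library 2. Scaling by library totals alone, without the TMM factor, gave 66. That scaling also moved the median of all genes from -0.07 to -0.34, and the core median from -0.36 to -0.62. The share of all genes called with it was not counted. Markers of Schwann cells (8 of 8), bone (5 of 6) and epidermis (2 of 5) were lower in this comparison. Higher were 3 of 20 for muscle and 4 of 7 rRNA-like genes. Tendon fibroblast markers gave 3 higher and 2 lower of 10, adipocyte markers 1 and 1 of 9, and endothelium 1 lower of 7. Their part was not tested.

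Flexor against Achilles tendon gave 6 core genes higher and 0 lower, a share near the 6.5% of all genes called higher (9.72% were lower). At an unadjusted edgeR p under 0.05, 46 were higher and 0 lower. The share of all genes at that unadjusted threshold was not counted, so the 46 have no background beside them. The core median was 0.37 against 0.00 for all genes. DESeq2 called 10 higher and 0 lower. The 4 largest were Rpl17, Rpl32, Rps25 and Rps3a1. Rpl17, a protein near the tunnel exit, was at 2.95, 3.74, 3.69 and 3.62 scaled CPM in Achilles and 4.73, 7.29, 7.99 and 4.47 in flexor libraries (0.81 ± 0.23 SE, adjusted p = 0.0246). Rpl32 (0.62 ± 0.20 SE, adjusted p = 0.0409), Rps25 (0.61 ± 0.19 SE, adjusted p = 0.0392) and Rps3a1 (0.51 ± 0.16 SE, adjusted p = 0.04502) also rose without overlap. The other 2, named after their values were seen, were Rps18 (0.50) and Rps26 (0.51), with edgeR adjusted p of 0.04102 and 0.0459. Leaving out 1 library lost the call of Rpl17 for 5 of the 16 libraries, of Rpl32, Rps25 and Rps18 for 8, of Rps3a1 for 9 and of Rps26 for 10. The count depended on the libraries fitted. It was 0 without Achilles library 1, 2 or 4 or flexor library 2 or 3, 1 without supraspinatus library 1 or 3, and 3 without Achilles library 3. It was 15, 17, 18 and 22 without patellar library 1, patellar library 3, supraspinatus library 2 and supraspinatus library 4. A fit of the 12 libraries without patellar tendon gave 22, and a fit of only the 8 libraries compared gave 34. The share of all genes called with DESeq2 or in these refits was not counted, so these counts have no background beside them. All 9 adipocyte markers, 3 of 6 for bone and 3 of 7 rRNA-like genes were lower in flexor tendon. So were 1 of 10 for tendon fibroblasts and 2 of 7 for endothelium. Muscle markers gave 5 higher and 1 lower of 20, and epidermis 1 higher of 5. Their part was not tested.

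Supraspinatus against Achilles tendon gave 4 core genes higher and 2 lower, beside 16.9% and 16.7% of all genes, with a core median of -0.01. The direction of the group depended on scaling, since library totals without TMM gave 0 higher and 38 lower, a scaling that also moved the median of all genes from -0.04 to -0.41. Rpl13a was at 4.49, 6.36, 4.32 and 3.79 scaled CPM in supraspinatus libraries, above the Achilles values given above (0.64 ± 0.22 SE, adjusted p = 0.0338). Rps2, a small subunit protein at the mRNA entry, was at 41.4, 45.9, 48.6 and 40.4 in Achilles and 60.4, 69.8, 60.8 and 49.4 in supraspinatus libraries (0.45 ± 0.15 SE, adjusted p = 0.0321). Rps26 and Rpl15, named after their values were seen, were the other 2 (0.55 and 0.46, edgeR adjusted p of 0.0165 and 0.0226). Rpl3 went the other way, from 65.05, 69.7, 58.1 and 68.6 in Achilles libraries to the lower supraspinatus values given above (-0.70 ± 0.16 SE, adjusted p = 0.00261). Rps10 was called lower just inside the threshold (-1.06 ± 0.39 SE, adjusted p = 0.0495), from 1.56, 0.992, 0.899 and 0.6201 scaled CPM in Achilles to 0.465, 0.628, 0.427 and 0.433 in supraspinatus libraries. These groups overlapped, and the call was lost on leaving out any of 11 of the 16 libraries. The calls of Rpl13a, Rps2, Rps26 and Rpl15 were lost on leaving out any of 5, 6, 3 and 4 libraries. The count higher was 0 without Achilles library 1 or 4 or supraspinatus library 2, and 2 without Achilles library 2 or supraspinatus library 1. The count lower was 6 without supraspinatus library 2. In supraspinatus against Achilles the markers of adipocytes (9 of 9), Schwann cells (8 of 8), endothelium (6 of 7) and bone (5 of 6) were lower. Of 20 for muscle, 10 were higher and 1 lower. Tendon fibroblast markers gave 3 higher and 1 lower of 10, and epidermis 1 lower of 5. The part of these markers was not tested. The count of core genes lower was 1, which leaves the Rps10 call out, without any of Achilles libraries 1 to 3, flexor libraries 1 to 4 or supraspinatus libraries 1, 3 and 4.

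These comparisons share libraries, so they are not independent of each other. The authors' deposited table, which holds 74 of the core genes, called 70 higher in patellar than in Achilles, 45 higher in patellar than in flexor, 71 lower in supraspinatus than in patellar and 33 lower in supraspinatus than in flexor tendon. Flexor against Achilles had 3 core genes higher in the authors' deposited table, and supraspinatus against Achilles 1 higher and 3 lower. The share of all genes called in that table was not counted, so these counts alone do not set the core genes apart from other genes. Of the core genes called by that table and by the fit here, the sign matched in every case: 68 of 68, 30 of 30, 63 of 63, 25 of 25, 3 of 3 and 2 of 2, in the order just given.

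A second fit asked which members changed against the others, by taking the summed counts of the 77 core genes as the library size. This scaling centres the core genes by construction and can shift the other genes against them. Shares of all genes on this scale, here and below, are therefore no independent background for the core counts. In patellar against Achilles tendon 9 core genes were higher and 3 lower, beside 3.89% and 40.2% of all genes on this scale. The median log2 fold change was 0.04 for core genes and -0.65 for all genes. Rpsa rose from 1.22 ± 0.111% to 2.07 ± 0.396% of the core counts (SD, n = 4 each), with a log2 difference of 0.77 ± 0.15 SE, adjusted p = 0.000665. Its patellar libraries held 2.44%, 1.57%, 1.94% and 2.32%, all above the highest Achilles library at 1.34%. Rpl13a (0.81), Rpl23a (0.72) and Rps12 (0.52) also rose. Rplp0 fell from 6.94 ± 0.486% to 4.96 ± 0.336% (-0.48 ± 0.13 SE, adjusted p = 0.00646), and Rps13 changed by -0.58, both without overlap. The count higher was 4 without any 1 Achilles library and 5 without patellar library 1.

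Against flexor tendon, 13 core genes were higher and 6 lower in patellar on this scale, beside 14.7% and 29.9% of all genes. Rpsa (1.02), Rpl13a (0.86), Rps15 (0.72) and Rpl23a (0.62) were highest. Rps25 (-0.50), Rpl15 (-0.49), Rplp0 (-0.47) and Rpl4 (-0.38) fell. Rps25 serves initiation on some internal entry sites, and Rpl4 lines the exit tunnel. Rplp1 and Rplp2, the stalk proteins that recruit translation factors, rose here (0.41 and 0.54) while Rplp0 fell. The count higher was 8 without flexor library 4. The count lower was 2 without flexor library 1, and 3 without flexor library 4 or patellar library 1, 3 or 4.

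The supraspinatus tendon differed from patellar on this scale by 9 core genes higher and 16 lower, beside 41.5% and 10.9% of all genes (52.4% either way). Rpl15, needed early in large subunit assembly, rose (0.91 ± 0.17 SE, adjusted p = 0.000225), from 0.363 ± 0.0814% to 0.684 ± 0.0565% of the core counts. Rpl4 (0.48), Rps2 (0.47) and Rpl27 (0.47) rose as well. Rpsa (-0.88), Rps12 (-0.80), Rpl3 (-0.74) and Rps21 (-0.56) fell most. A fit of only the 8 libraries compared called 3 higher and 6 lower.

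Rpl3 and Rps2 set the supraspinatus tendon apart from all the others within the core counts. Rpl3 was at 0.956 ± 0.118% of them there, against 1.57 ± 0.207%, 1.52 ± 0.159% and 1.598 ± 0.165% in Achilles, flexor and patellar tendon, and no supraspinatus library reached any library of the other tendons. Its log2 differences were -0.72 ± 0.15 SE, adjusted p = 0.00244 against Achilles and -0.67 ± 0.15 SE, adjusted p = 0.002897 against flexor. Rps2 was at 1.44 ± 0.106% against 1.05 ± 0.0283%, 1.11 ± 0.0305% and 1.04 ± 0.0811%, again without overlap (0.45 ± 0.12 SE, adjusted p = 0.0118 against Achilles and 0.38 ± 0.12 SE, adjusted p = 0.0275 against flexor). In all, 3 core genes were higher (Rpl13a, Rps26 and Rps2) and 2 lower (Rpl3 and Rps19) against Achilles, beside 12.3% and 11.3% of all genes. Against flexor 4 were higher (Rpl13a, Rps26, Rplp2 and Rps2) and 3 lower (Rpl3, Rps27 and Rps18), beside 22.9% and 4.73%. The count lower against Achilles was 1 without any of 8 libraries (Achilles 1, 2 and 4, flexor 2 and 4, supraspinatus 1, 3 and 4). Against flexor the count higher was 2 without flexor library 2 or 3 or supraspinatus library 1, 3 or 4, and the count lower was 1 without flexor library 2 or 3 or supraspinatus library 3. Flexor against Achilles gave 0 higher and 0 lower by edgeR, beside 1.77% and 14.6% of all genes. At an unadjusted edgeR p under 0.05 it gave 0 and 4, for which the share of all genes was not counted.

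**Figure D3:**
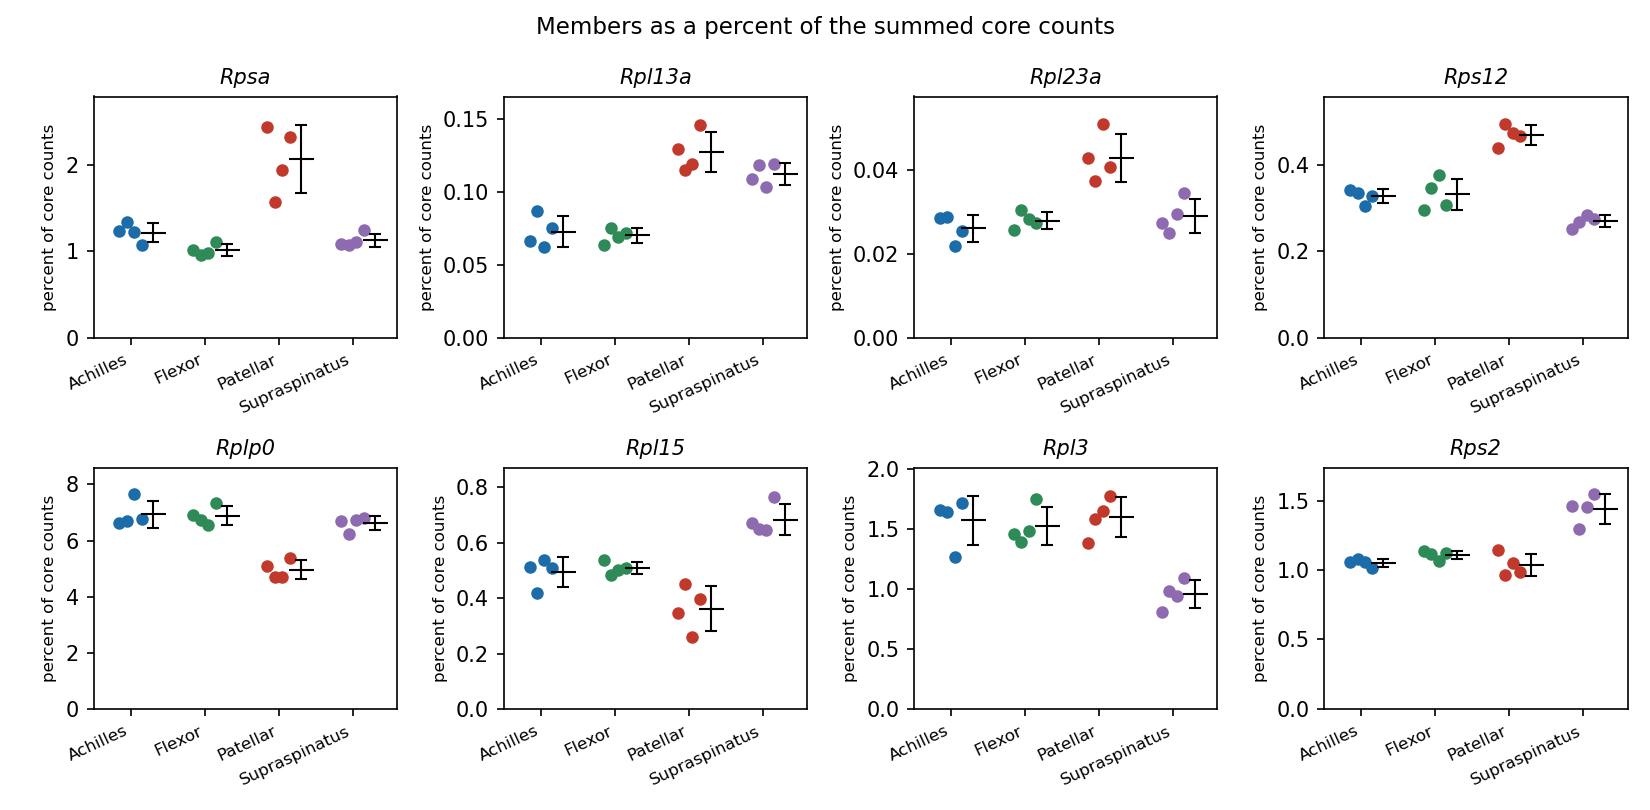
Percent of the summed core counts (vertical axis, from 0) in each library for 8 core genes; points are libraries, horizontal marks are means and bars are SD (n = 4 per tendon). Rpsa is near 2.07% in patellar and 1.02% to 1.22% elsewhere, and Rpl3 is at 0.956% in supraspinatus and 1.52% to 1.60% elsewhere.

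Among the paralogs, Rpl39l separated the tendons most sharply. It was at 17.1, 11.9, 16.8 and 13.02 scaled CPM in the patellar libraries, 1.49, 1.93, 1.05 and 1.26 in supraspinatus, 0.2201, 0.308, 0.1498 and 0.182 in Achilles and 0.174, 0.3402, 0.187 and 0.1498 in flexor. The patellar and supraspinatus libraries overlapped no library of another tendon, and the Achilles and flexor libraries lay among each other. The raw counts were 483 to 914 in patellar and 86 to 147 in supraspinatus libraries, against 15 to 34 in the other 8. The log2 fold change was 6.08 ± 0.34 SE, adjusted p = 7.0e-08 for patellar against Achilles, 2.73 ± 0.30 SE, adjusted p = 8.7e-06 for supraspinatus against Achilles and -3.36 ± 0.29 SE, adjusted p = 2.3e-07 for supraspinatus against patellar. Flexor and Achilles did not differ past the threshold (-0.02 ± 0.31 SE, adjusted p = 0.979).

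Its core partner Rpl39 varied far less, at 61.6, 39.8, 54.8 and 51.8 scaled CPM in patellar, 23.8, 34.97, 26.4 and 18.7 in supraspinatus, 27.6, 27.9, 30.5 and 30.4 in Achilles and 33.9, 45.1, 52.7 and 31.9 in flexor libraries. The ratio of Rpl39l to Rpl39 counts was 0.284 ± 0.0249 in patellar and 0.0565 ± 0.0122 in supraspinatus tendon, and 0.00765 and 0.00535 in Achilles and flexor (SD, n = 4 each). In exact 2-sided permutation tests of the log2 ratio, in which 4 against 4 libraries cannot go below p = 0.0286, all comparisons but flexor against Achilles were at that smallest value (adjusted p = 0.0403 over 24 tests). Per kilobase of exon, Rpl39l stood at 17.7 and Rpl39 at 36.2 scaled CPM in patellar tendon. The merged exon lengths behind these values were 831 and 1434 bases, while both coding sequences have 156 bases. Marker lists that moved in the same comparisons are counted above, and their part in the Rpl39l levels was not tested.

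Rpl3l, the muscle paralog of Rpl3, ran from lowest in patellar to highest in supraspinatus tendon. Its scaled CPM were 23.1, 1.77, 1.39 and 13.99 in patellar, 107, 101, 208 and 106 in Achilles, 232, 243, 226 and 202 in flexor and 336, 342, 329 and 278 in supraspinatus libraries. The patellar libraries spread widely and lay below all others, and the supraspinatus libraries lay above all others. Achilles library 3 stood above the other 3 Achilles libraries and inside the flexor range. The log2 fold changes of patellar tendon were -3.69 ± 0.65 SE, adjusted p = 0.000399 against Achilles and -4.49 ± 0.68 SE, adjusted p = 5.4e-05 against flexor, and supraspinatus differed from patellar by 4.99 ± 0.69 SE, adjusted p = 2.0e-05. The differences among the other 3 tendons did not pass (0.79, 1.30 and 0.51 for flexor against Achilles, supraspinatus against Achilles and supraspinatus against flexor; edgeR adjusted p = 0.4103, 0.104 and 0.563). A fit without the patellar libraries called all 3, with log2 fold changes of 0.78, 1.33 and 0.55 and edgeR adjusted p of 0.0112, 0.000178 and 0.0422. Supraspinatus against Achilles also passed without patellar library 2 (1.30) or 3 (1.28).

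The 20 skeletal muscle markers, listed above with their ranges, took the same order over the tendons. For each 1000 counts in these markers, Rpl3l had 2.73 ± 1.202 counts in patellar, 2.43 ± 0.307 in flexor, 2.06 ± 0.0777 in Achilles and 1.698 ± 0.1095 in supraspinatus tendon (SD, n = 4 each). The ratio spanned 1.698 to 2.73 between tendon means, and 1.24 to 3.975 over the patellar libraries. Mean Rpl3l levels spanned 10.1 ± 10.5 to 321 ± 29.4 scaled CPM. The part of muscle content in the Rpl3l levels was not tested. Rpl3 was lowest in supraspinatus and highest in patellar tendon, at means of 40.2 ± 8.96 and 106 ± 17.9 scaled CPM. The count ratio of Rpl3l to Rpl3 was 8.21 ± 1.48 in supraspinatus, 2.77 ± 0.441 in flexor, 2.05 ± 1.02 in Achilles and 0.0937 ± 0.0993 in patellar tendon. The exact permutation tests of this ratio were at the smallest p of 0.0286 (adjusted p = 0.0403) for 5 of the 6 comparisons, all but flexor against Achilles (p = 0.171, exact). Per kilobase of exon, Rpl3l exceeded Rpl3 in Achilles (79.4 against 20.6), flexor (137 against 25.97) and supraspinatus (196 against 12.7) and was below it in patellar tendon (6.13 against 33.5). The merged exon lengths were 1643 bases for Rpl3l and 3175 for Rpl3, while their coding sequences have 1224 and 1212 bases. This scale therefore widens the gap in favour of Rpl3l beyond the count ratio.

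**Figure D4:**
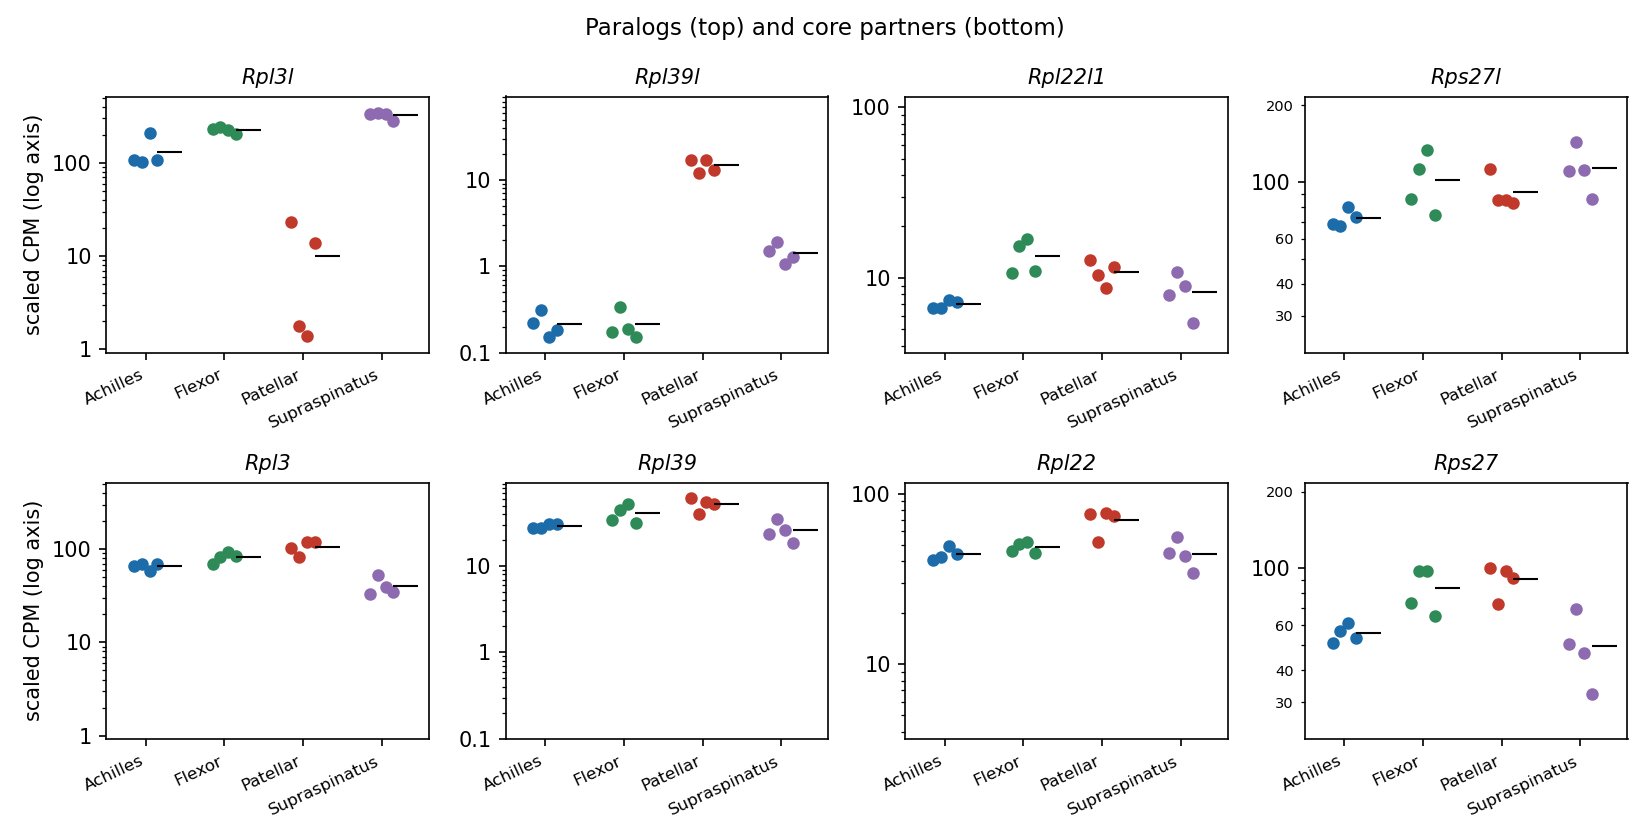
Scaled CPM (vertical log axes) of the 4 paralogs (top row) and their core partners (bottom row) in each library; points are libraries and horizontal marks are means, with no error bars. Rpl39l is at 11.9 to 17.1 in patellar and under 0.35 in Achilles and flexor libraries, and Rpl3l is lowest in patellar libraries.

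Rpl22l1 was highest in flexor tendon. Its scaled CPM were 10.7, 15.3, 16.8 and 10.9 in flexor, 6.64, 6.66, 7.402 and 7.18 in Achilles, 12.7, 10.3, 8.71 and 11.6 in patellar and 7.88, 10.8, 9.002 and 5.45 in supraspinatus libraries. All flexor libraries lay above all Achilles libraries, while flexor overlapped patellar and supraspinatus. It was higher in flexor (0.95 ± 0.21 SE, adjusted p = 0.00537) and in patellar (0.64 ± 0.21 SE, adjusted p = 0.0228) than in Achilles, and lower in supraspinatus than in flexor (-0.70 ± 0.21 SE, adjusted p = 0.0187). The patellar call was lost without Achilles library 1 (0.62) or 2 (0.62) or patellar library 1 (0.52) or 4 (0.58). The supraspinatus call was lost without flexor library 2 (-0.63) or 3 (-0.57) or supraspinatus library 1 (-0.67) or 4 (-0.54). Against the summed core counts the flexor difference from Achilles held (0.55 ± 0.18 SE, adjusted p = 0.0495) and the patellar one was near 0 (-0.01 ± 0.18 SE, adjusted p = 0.961). Its partner Rpl22, which binds RNA and is dispensable in most tissues, gave a ratio of 0.275 ± 0.0434 in flexor and 0.159 ± 0.0062 in Achilles tendon, at the smallest exact permutation p (adjusted p = 0.0403).

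Rps27l had more counts than its core partner in all libraries but patellar libraries 3 and 4. Its scaled CPM were 110.4, 144, 112 and 86.3 in supraspinatus, 85.98, 113, 133 and 74.7 in flexor, 113, 85.1, 85.4 and 83.1 in patellar and 68.5, 67.7, 80.3 and 73.3 in Achilles libraries. It was called higher in supraspinatus than in Achilles tendon (0.64 ± 0.18 SE, adjusted p = 0.0123), without overlap, and its other 5 differences did not pass, with edgeR adjusted p from 0.0775 to 0.5704. With library totals alone the call was lost (0.28). Rps27 was at 50.7, 69.6, 46.7 and 32.4 in supraspinatus, 73.5, 97.4, 98.01 and 65.2 in flexor, 100.3, 72.8, 97.9 and 92.01 in patellar and 51.2, 57.2, 61.1 and 53.5 in Achilles libraries. The ratio of Rps27l to Rps27 was 2.33 ± 0.264 in supraspinatus, against 1.30 ± 0.0820, 1.21 ± 0.102 and 1.02 ± 0.151 in Achilles, flexor and patellar tendon, with no overlap (exact permutation, adjusted p = 0.0403 in each of the 3). Against the summed core counts Rps27l rose in supraspinatus against Achilles (0.63 ± 0.14 SE, adjusted p = 0.00433), flexor (0.54 ± 0.14 SE, adjusted p = 0.00921) and patellar tendon (0.95 ± 0.14 SE, adjusted p = 3.5e-05). Over the 4 pairs, 17 of the 24 ratio tests were at the smallest p.

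The other copies were mostly low. Rpl10l, a germ-cell copy of Rpl10, had 0 counts in 14 libraries and 1 and 2 in Achilles libraries 1 and 2, and was not tested. Rps3a2, an annotated pseudogene, had 2 to 14 counts a library. Of the 7 tested, 4 were called higher in patellar than in Achilles tendon, beside 17.4% of all genes, and 4 lower in supraspinatus than in patellar, beside 26.8%. Rps4l, an annotated pseudogene, was the most abundant pseudogene here, at 23.3, 26.4, 17.9 and 25.9 scaled CPM in Achilles and 37.6, 33.5, 34.1 and 29.98 in patellar libraries (0.53 ± 0.15 SE, adjusted p = 0.0128). By gene span it lies antisense to Tmtc1. Overlap of exons was not checked, and reads in any shared stretch cannot be told apart without strand. Rpl32l (1.07), Rpl36al (0.57) and Rps3a3 (0.89, named after its value was seen) were the other 3 higher in patellar (edgeR adjusted p of 0.0225, 0.0317 and 0.02396). Rpl36al, an expressed copy of Rpl36a, was also higher in supraspinatus than in Achilles (0.57 ± 0.20 SE, adjusted p = 0.0353). Rpl6l was lower in supraspinatus than in patellar tendon (-1.09 ± 0.35 SE, adjusted p = 0.0156). Leaving out 1 library lost the patellar call of Rpl32l for 3 libraries and of Rpl36al for 5, the supraspinatus call of Rpl36al for 8 and that of Rpl6l for 2. Rpl7l1, a Rpl7-like protein, was nearly level over the tendons, between 50.3 ± 1.81 and 59.98 ± 1.704 scaled CPM in Achilles and flexor (SD, n = 4 each). Its flexor call (0.25 ± 0.08 SE, adjusted p = 0.04201) was lost without any of 12 of the 16 libraries.

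The mitochondrial ribosome, which translates the few proteins encoded in mitochondria, is built from a separate set of proteins. Of 78 mitochondrial ribosomal protein genes tested, 41 were lower and 1 higher in patellar than in Achilles tendon (median log2 fold change -0.42), beside 21.1% of all genes lower and 17.4% higher. In supraspinatus against patellar 63 were higher and 1 lower (0.68), beside 26.4% and 26.8%. Supraspinatus also had 30 higher and 1 lower against Achilles (0.32) and 33 higher and 0 lower against flexor (0.37; 0 is by edgeR), beside 16.9% higher and 16.7% lower, and 14.7% and 12.4%, of all genes. Patellar against flexor gave 6 higher and 36 lower, beside 24.2% and 26.2%, and flexor against Achilles 0 higher and 4 lower by edgeR, beside 6.5% and 9.72%. As a share of all counts these genes were lowest in patellar tendon (0.225 ± 0.0393%, SD, n = 4), but with the rRNA-like genes left out of the total the patellar mean was 0.3203% against 0.312% in flexor, 0.348% in supraspinatus and 0.355% in Achilles. Mrps27 was at 8.34 ± 0.714 scaled CPM in patellar and 23.9 ± 0.634 in supraspinatus tendon (1.51 ± 0.13 SE, adjusted p = 1.9e-07). Mrpl37 (1.51 ± 0.15 SE, adjusted p = 5.5e-07) moved likewise, while Mrps30 was lowest in flexor tendon, at 6.26 ± 1.27 against 31.5 ± 4.697 in supraspinatus (2.33 ± 0.18 SE, adjusted p = 1.6e-07). Skeletal muscle markers moved in the same direction as this list in the patellar comparisons, and their part was not tested.

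Genes for ribosome assembly, such as polymerase I subunits and nucleolar processing factors, were counted beside the same shares of all genes. Of 44 tested, 5 were higher and 14 lower in patellar than in Achilles tendon (17.4% and 21.1% of all genes), 3 and 26 in patellar against flexor (24.2% and 26.2%), and 20 and 7 in supraspinatus against patellar (26.4% and 26.8%). Flexor against Achilles gave 12 higher and 2 lower (6.5% and 9.72%), supraspinatus against Achilles 11 and 3 (16.9% and 16.7%), and supraspinatus against flexor 2 and 6 (14.7% and 12.4%). Muscle markers moved with the larger count in each patellar comparison (19 of 20), and their part was not tested. Rrp12, a factor for export of pre-ribosomes, was at 7.23 ± 1.14 scaled CPM in patellar and 64.1 ± 8.71 in supraspinatus tendon (3.15 ± 0.18 SE, adjusted p = 8.7e-09). Utp4 (0.95 ± 0.09 SE, adjusted p = 3.4e-07) and Bms1 (53.6 ± 3.72 against 26.8 ± 2.200 scaled CPM, edgeR adjusted p = 4.7e-07), which process the small subunit precursor, were higher in supraspinatus tendon too.

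Translation factors were mixed. Of 25 tested, 10 were higher and 3 lower in patellar than in Achilles tendon (17.4% and 21.1% of all genes), 4 and 8 in patellar against flexor (24.2% and 26.2%), and 5 and 5 in supraspinatus against patellar (26.4% and 26.8%). Flexor against Achilles gave 4 and 2 (6.5% and 9.72%), supraspinatus against Achilles 6 and 0 by edgeR (16.9% and 16.7%), and supraspinatus against flexor 4 and 4 (14.7% and 12.4%). Pabpc1, the cytoplasmic poly(A)-binding protein, was higher in patellar than in Achilles tendon (0.96 ± 0.13 SE, adjusted p = 3.4e-05), at 122 ± 20.9 against 62.5 ± 5.88 scaled CPM. Naca, a chaperone for nascent chains that also has a muscle isoform, went the other way, at 58.05 ± 6.29 against 143 ± 35.6 (-1.30 ± 0.16 SE, adjusted p = 1.7e-05).

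**Figure D5:**
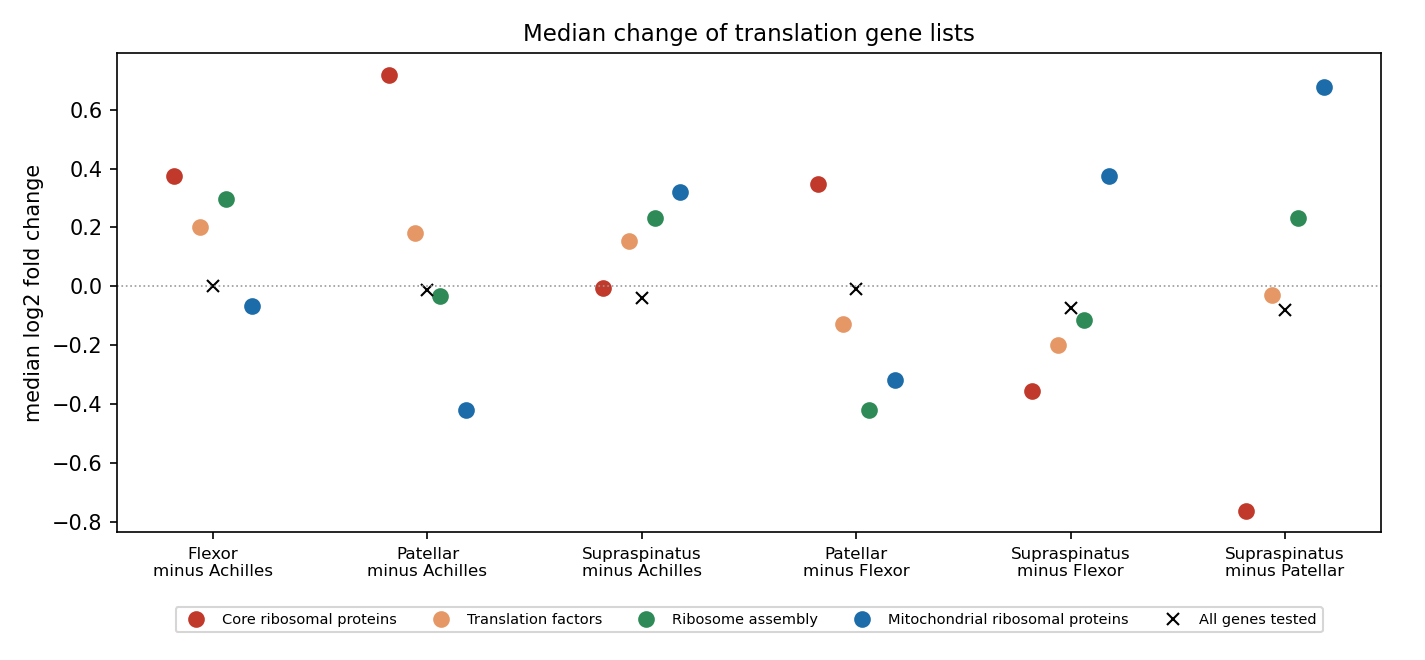
Median log2 fold change (vertical axis, first tendon minus second) of the core genes and 3 other gene lists in the 6 comparisons; crosses mark the median of all genes tested. The core median of 0.72 in patellar minus Achilles stands opposite the mitochondrial ribosomal median of -0.42, and in supraspinatus minus patellar the order is turned.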

How the data were processed

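Total RNA from the 4 tendons was sequenced from libraries made with Illumina protocols, per the labels. The deposited table holds raw read counts per gene in 16 columns, with no normalization. HISAT2, FastQC, edgeR and the mm10 build are named, without versions, in the submitters' processing notes. The read counter, annotation and strand setting: not given in the sources used here. The authors' deposited table of comparisons gives log2 fold changes, log2 CPM, p-values and FDR per gene, and was used only for the counts credited to it.

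Counts were analysed with edgeR 4.0.16 in R 4.3.3: filterByExpr by tendon (23754 of 41204 genes), TMM, and a robust quasi-likelihood fit of all 16 libraries with 1 mean per tendon. All tests were 2-sided, with Benjamini-Hochberg adjustment over all genes tested within a comparison and a threshold of 0.05. Standard errors were taken as |log2 fold change|/√F. A second fit used the summed counts of the 77 core genes as library size. Log2 ratios of paralog to partner, with 0.5 added to both counts, were compared by exact permutation over the 70 groupings, adjusted over 24 tests. The scripts were tested on simulated data. Libraries of a tendon are assumed to be separate mice. If some shared a mouse, p-values measure only the spread between these samples. If libraries of different tendons with the same number came from 1 mouse, the main fit ignored that pairing. No library pair was identical (0 pairs).

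The members, gene lists and tests were chosen with earlier results of these data known. Named genes are the paralogs and their partners, other copies whose names end in l, the stalk genes and Rpsa, and, per comparison, up to 4 core genes each way with the largest change among those called without overlap, also relative to the core sum, those called against most others, and up to 3 per other list by the test over all tendons. Rps3a2 and Rps3a3, annotated as processed pseudogenes, were placed with the other copies after the annotation was read. Positions are from GENCODE for GRCm38, the assembly of mm10, and promoters from RefSeq GRCm38.p6. Alternatives were other scalings, no low-count filter, DESeq2 1.42.0, mouse number as a block, fewer libraries, and each library left out.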

Additional observations from a re-analysis of the deposited data

Results flagged for a closer look

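With 4 libraries a group, 172 group values of the named members, ratios and shares were checked for a library far from the other 3, and 9 stood apart. Chance alone sets about 1 in 20 groups apart in this way. Achilles library 3 accounted for 5 of them. Its paralogs took 0.0304% of counts, against 0.0204% to 0.0216% in the other 3 Achilles libraries. Its Rpl3l level was 208 scaled CPM against 101 to 107, and its ratio of Rpl3l to Rpl3 was 3.58 against 1.45 to 1.64. Its Rps13 level was 71.8 against 51.9 to 52.1, and its Rpl27 level 36.0 against 28.5 to 29.6. Skeletal muscle markers took 10.2% of the counts of this library, against 5.44% to 6.29% in the other 3 Achilles libraries, and their part in these values was not tested. Achilles library 1 was low in Rpl17, at 2.95 scaled CPM against 3.62 to 3.74. Patellar library 2 was low in Rpl22, at 52.2 against 73.7 to 77.3, and patellar library 1 high in Rps27l, at 112.8 against 83.1 to 85.4. Flexor library 3 had a ratio of Rps27l to Rps27 of 1.36, against 1.15 to 1.17.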

How the results depend on the processing

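For core genes in patellar against Achilles and supraspinatus against patellar, each alternative kept the direction and was within 1.5 times the count. Core genes higher in flexor than in Achilles (6) were 2 with median-ratio size factors, 0 with library totals, 3 with no low-count filter, 10 with DESeq2, 22 without the patellar libraries and 34 with only the 8 libraries compared. Higher in patellar than in flexor (31), they were 20 with library totals and 20 with no filter. In supraspinatus against Achilles (4 higher, 2 lower), library totals gave 0 higher and 38 lower, and no filter and the scaling without rRNA-like genes gave 1 lower each. Lower in supraspinatus than in flexor (25), they were 66 with library totals. Leaving out 1 library gave 0 to 22, 16 to 44, 0 to 5 higher and 1 to 6 lower, and 9 to 45 in the same order. With library totals the median of all genes lay between -0.41 (supraspinatus against Achilles) and -0.10 on the log2 scale. The share of all genes called under each alternative was not counted, and the cause of these changes was not tested.

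Relative to the summed core counts, median-ratio factors over the core genes gave 4 higher and 6 lower in patellar against Achilles, 8 higher against flexor, 5 higher and 1 lower in supraspinatus against Achilles and 15 higher against patellar. Only the 8 libraries compared gave 3 higher in patellar against Achilles, 6 higher and 2 lower against flexor, and in supraspinatus 2 higher and 1 lower against flexor and 3 higher and 6 lower against patellar; fewer libraries enter these fits. Leaving out 1 library gave 4 to 10 higher in patellar against Achilles, 8 to 13 higher and 2 to 7 lower against flexor, and in supraspinatus 1 to 3 lower against Achilles and 2 to 5 higher and 1 to 3 lower against flexor.

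Of the paralogs, Rpl3l was called without the patellar libraries in flexor against Achilles (0.78), supraspinatus against Achilles (1.33) and supraspinatus against flexor (0.55), and with only the 8 libraries compared (0.77, 1.26 and 0.52). Rpl22l1 in patellar against Achilles (0.64) missed the threshold with library totals (0.44) and no filter (0.56) and turned to -0.013 against the summed core counts, a scaling added after seeing the data. That scaling also gave -0.56 (called) for patellar against flexor and -0.33 (not called) for supraspinatus against flexor, and for Rps27l -0.41 in patellar against flexor, 0.54 in supraspinatus against flexor and 0.95 against patellar, all called. With library totals Rpl22l1 was called in supraspinatus against patellar (-0.57), Rps27l in supraspinatus against Achilles was not (0.28), and Rpl22 in that comparison turned from 0.01 to -0.35. Leaving out 1 library gave 0.52 to 0.70 for Rpl22l1 in patellar against Achilles, -0.85 to -0.54 in supraspinatus against flexor, 0.33 to 0.59 for Rps27l in flexor against Achilles and 1.19 to 1.62 for Rpl3l in supraspinatus against Achilles.

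The core share of counts without the rRNA-like genes was 0.491% in Achilles and 0.932% in patellar tendon, and without muscle markers, mitochondrially encoded and haemoglobin genes 0.531%, 0.659%, 0.694% and 0.466% in Achilles, flexor, patellar and supraspinatus. With Rps3a2 and Rps3a3 counted as core, also added after seeing the data, each count was within 1.5 times the main value. In 150 of the 6202 values recomputed a sign changed where neither value passed the threshold; these have no called direction.

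With mouse number as a replicate block, core genes higher in flexor than in Achilles were 3, lower in supraspinatus than in Achilles 1, and, relative to the summed core counts, lower in supraspinatus than in Achilles 1 and in patellar than in flexor 3. The block did not follow a pairing seen in the data: 2 of 24 same-number pairs correlated above 0.1 (range -0.14 to 0.26), and 5 of 16 libraries correlated best with their own number.

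The patellar libraries had the fewest counts, and 4 libraries a tendon limit the exact tests to p = 0.0286.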
